A study of Homo sapiens with 6 samples.

Results

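The matrix metalloproteases (MMPs), the ADAM and ADAMTS proteases and their tissue inhibitors (TIMPs) were examined in LS174T, a human cell line grown out of a colorectal adenocarcinoma and labelled as a goblet-like cell. Members were all protein-coding genes of the deposited count table named MMP, ADAM or ADAMTS with a number, and TIMP1 to TIMP4. This gave 66 genes of 58735 with a name, of which 23 were MMPs, 20 ADAMs, 19 ADAMTSs and 4 TIMPs. Poly(A) RNA was sequenced from 3 libraries whose labels give the genotype FXYD3 knockout and from 3 wild-type (WT) libraries of the same line. FXYD3 is a small membrane protein that regulates the sodium pump. The labels name no treatment, do not describe the edit and leave unsaid if each library is its own culture or clone. The p-values therefore measure only the library-to-library spread, possibly a technical one.

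MMPs, ADAMs and ADAMTSs are zinc-dependent proteases made as inactive precursors. MMPs cut collagens, laminins and other matrix proteins, either as secreted enzymes or anchored at the cell surface. ADAMs are mostly transmembrane proteins and release the outer parts of growth factors, receptors and adhesion proteins, whereas ADAMTSs are secreted and cut proteoglycans, procollagens and other matrix proteins. TIMPs block MMPs by binding the active site, and some block ADAMs or ADAMTSs too. In the gut, tumour cells and the surrounding stroma both contribute to this set, and many secreted MMPs come mainly from stromal and inflammatory cells.

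The libraries held 15417232 to 19453217 counts in named genes. The FXYD3 transcript had 79, 131 and 85 counts in the knockout-labelled libraries and 54, 91 and 55 in WT libraries (log2 fold change 0.54, SE 0.20, edgeR adjusted p = 0.0522). The transcript was thus not called lower under the knockout label, so every direction given here follows the labels alone. The epithelial markers KRT8, KRT18, EPCAM, VIL1, CDX2, CDH1 and KRT20 were present in both groups, with a summed level of 10110 to 10810 CPM in knockout-labelled and 9317 to 10510 CPM in WT libraries. CPM values are counts divided by library size, with TMM factors to allow for composition. The 5 goblet markers AGR2, TFF3, MUC2, ATOH1 and SPDEF were detected too, at a summed 490 to 548 CPM in knockout-labelled and 669 to 845 CPM in WT libraries.

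The set was dominated by a few surface proteases and 1 inhibitor, and most of its members were silent or nearly so. Levels of different genes are compared here in TPM, an abundance per transcript length that divides the counts by the gene length of the deposited table. The 6 most abundant members, TIMP1, ADAM15, ADAM9, MMP15, MMP14 and ADAM10, made up 86.6 to 89.6% of the set's summed TPM in each library. TIMP1 averaged 127 ± 9.52 TPM in knockout-labelled and 139.7 ± 6.08 TPM in WT libraries (SD, n = 3 each). By their mean over the 6 libraries, 8 members reached 10 TPM, 12 lay between 1 and 10 TPM and 46 lay under 1 TPM. A filter asked for a count of about 10 in at least 3 libraries, and 22 members passed it. Of the other 44, 25 had at least 1 count and 19 had none in any library.

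**Figure D1:**
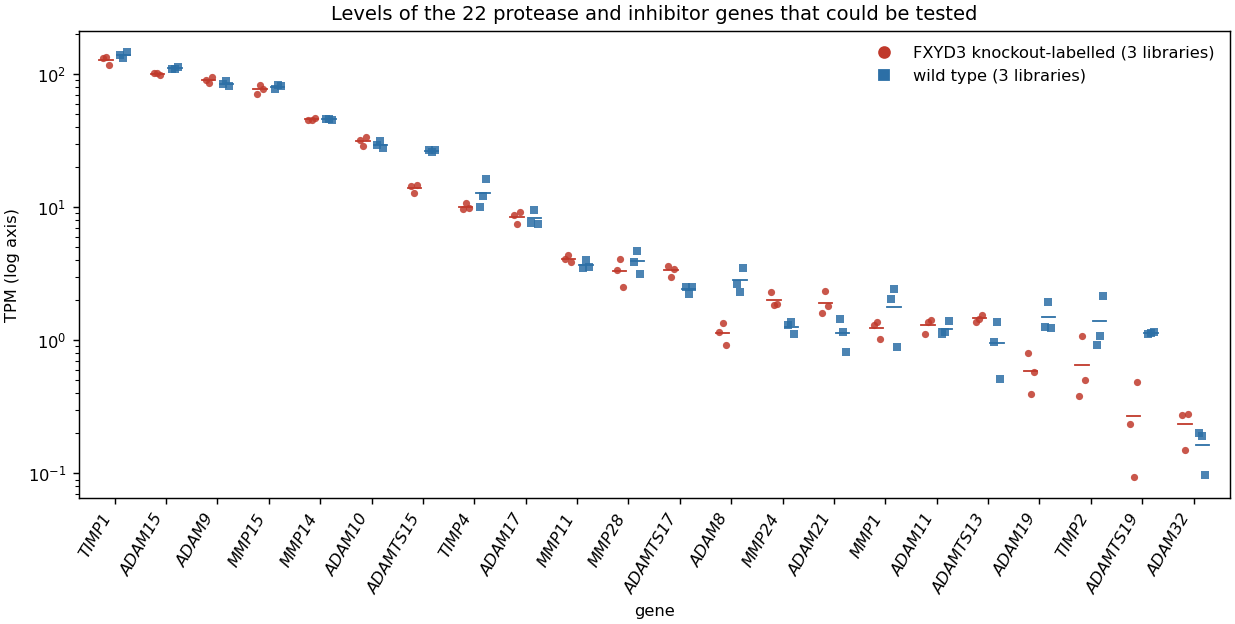
TPM of the 22 tested genes on a log axis, ordered by mean level; red circles are the 3 knockout-labelled libraries, blue squares the 3 wild-type libraries, and bars their means. The groups do not overlap for ADAMTS15, ADAM8, ADAM19, ADAMTS19 and ADAM15, which are lower in knockout-labelled libraries. They do not overlap either for ADAMTS17, MMP24, ADAM21 and ADAMTS13, which are higher there. They nearly coincide for MMP14, ADAM10 and ADAM17.

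Of the 22 members tested, 5 were lower and 1 was higher in the knockout-labelled libraries by edgeR's quasi-likelihood test, with p-values adjusted over all 15351 genes tested and a threshold of 0.05. The 5 were ADAMTS15, ADAM8, ADAMTS19, ADAM19 and ADAM15, and the 1 was ADAMTS17. As a share this was 27.3% of the members, against 24.3% of all genes and 27.0% of protein-coding genes tested. The lower members were 22.7%, against 12.4% of all genes and 14.5% of protein-coding genes called lower, and the higher one was 4.55%, against 12.0% of all genes and 12.5% of protein-coding genes called higher. Falls of at least 1 log2 unit were called in 3 members (13.6%), against 2.92% of all genes and 3.16% of protein-coding genes. The groups did not overlap for 9 members (40.9%), 4 of them higher and 5 lower, against 37.2% of all genes and 40.1% of protein-coding genes. The median log2 fold change of the tested members was -0.06, and it was 0.002 over all genes. Of the 22 members, 19 passed the filter in all 6 libraries. ADAMTS19 passed in all WT libraries and 1 knockout-labelled one, so it could pass only by being high in WT. MMP1 passed in all knockout-labelled and 2 WT libraries, and ADAM32 in 2 knockout-labelled libraries and 1 WT library.

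**Figure D2:**
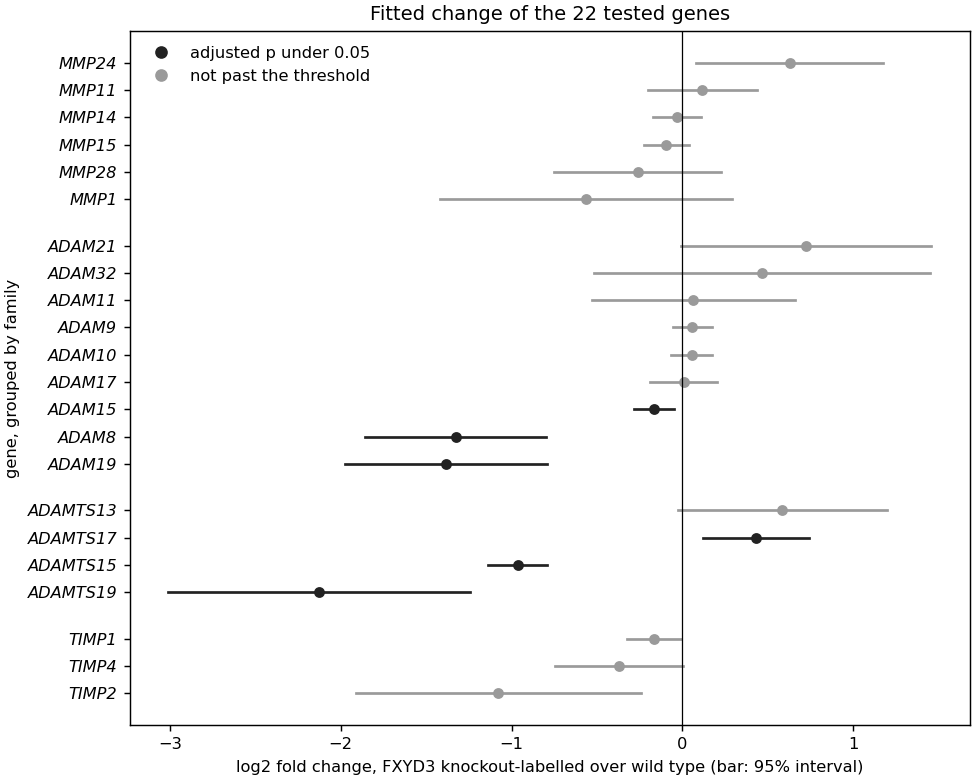
Log2 fold change of the 22 tested genes, knockout-labelled over wild type, with 95% intervals, grouped by family. Black points passed an adjusted p of 0.05: ADAM15, ADAM8 and ADAM19, ADAMTS15 and ADAMTS19 on the lower side and ADAMTS17 on the higher side; no MMP or TIMP did.

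Among the ADAMs, the broad sheddases ADAM9, ADAM10 and ADAM17 were not called, while 2 less abundant members fell by more than 1 log2 unit. ADAM10, which releases Notch receptors, cadherins and several growth factors, had 155.8, 141 and 161 CPM in knockout-labelled libraries and 149, 149.9 and 142 CPM in WT libraries. The groups overlapped, and the log2 fold change was 0.05 with a 95% interval of -0.07 to 0.18. ADAM17, the protease that releases tumour necrosis factor and most ligands of the EGF receptor, had 28.4, 24.6 and 29.4 CPM in knockout-labelled libraries, against 25.6, 30.5 and 25.6 CPM in WT libraries. Its interval was -0.19 to 0.20. ADAM17 shares 1323 exonic bases with IAH1 on the opposite strand, and with the strand setting of the counting not given, reads from that stretch cannot be assigned to 1 of the 2 genes. ADAM9, a sheddase of broad tissue distribution, had 188, 180.4 and 195 CPM in knockout-labelled libraries and 183, 179.9 and 179 CPM in WT libraries, with an interval of -0.06 to 0.17.

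ADAM8, an ADAM known from leukocytes and from invasive tumours, fell. It had 26, 38 and 22 counts in knockout-labelled libraries and 69, 58 and 85 counts in WT libraries, or 1.64 ± 0.318 and 4.17 ± 1.02 CPM (SD, n = 3 each). All knockout-labelled libraries lay below all WT libraries. The fitted log2 fold change was -1.33 (SE 0.26, 95% interval -1.86 to -0.80, edgeR adjusted p = 0.000282). The gene lies on chromosome 10 (GRCh38, 133262403 to 133276868, minus strand). Leukocyte markers other than CD14 were near the limit of detection. PTPRC and CD3E were at 0 in every library, and the 6 markers summed to 0.416 to 0.715 CPM in knockout-labelled and 3.14 to 5.08 CPM in WT libraries. CD14 had the most counts of these markers in both groups, with 20 in all knockout-labelled and 189 in all WT libraries, followed by CSF1R with 9 and 15. CD14 had 4.51, 2.64 and 3.97 CPM in WT libraries and was called lower (log2 fold change -3.24, edgeR adjusted p = 6.66e-08). In bulk RNA, fewer cells with a transcript and less of it per cell cannot be told apart.

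ADAM19, a sheddase that can release neuregulin, fell as well. It had 29, 18 and 22 counts in knockout-labelled libraries, against 53, 79 and 49 counts in WT libraries, with no overlap. On the log2 scale the change was -1.38 (95% interval -1.97 to -0.79, SE 0.29, edgeR adjusted p = 0.000616). ADAM19 (chromosome 5, 157395534 to 157575775, minus strand) shares 62 exonic bases with CYFIP2, an abundant gene of the opposite strand that was called higher (0.34, edgeR adjusted p = 0.000286).

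ADAM15, which carries an integrin-binding sequence and sits at epithelial junctions, was the most abundant protease of the set per length and fell by a small amount. It had 205, 202 and 193 CPM in knockout-labelled libraries and 224, 212.5 and 236.5 CPM in WT libraries, without overlap. This was a log2 fold change of -0.17 (SE 0.06, 95% interval -0.28 to -0.05, edgeR adjusted p = 0.0338). The call was lost with the replicate number as a block (edgeR adjusted p = 0.102) and on leaving out any library except WT library 2 (edgeR adjusted p 0.0551 to 0.161). It was also lost with upper-quartile factors (edgeR adjusted p = 0.0643), total counts (0.0629) and a minimum change of 1.5-fold.

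The other tested ADAMs were low. ADAM21, a member best known from testis, had 20, 37 and 24 counts in knockout-labelled and 21, 16 and 11 counts in WT libraries, without overlap in CPM (edgeR adjusted p = 0.151). ADAM11, a member of the family that lacks protease activity, had a log2 fold change of 0.07 with a wide interval of -0.53 to 0.66, and its sign turned without WT library 2. ADAM32 had 36 counts in all knockout-labelled and 26 in all WT libraries. It lies 1846 bases from the abundant ADAM9, which had 9734 and 9261 counts.

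Among the ADAMTSs, ADAMTS15 was the only member above 10 TPM, and it fell by close to 1 log2 unit. ADAMTS15 cuts the proteoglycans versican and aggrecan. It had 384, 429 and 413 counts in knockout-labelled libraries, against 823, 772 and 775 counts in WT libraries, or 23.8 ± 1.60 and 46.3 ± 2.60 CPM (SD, n = 3 each). The libraries of each group lay close together and the groups far apart. ADAMTS15 changed by -0.96 on the log2 scale (SE 0.08, 95% interval -1.14 to -0.79, edgeR adjusted p = 5.9e-10). The gene lies on chromosome 11 (130448974 to 130476641, plus strand). ADAMTS8, its neighbour 19981 bases away, had 2 counts in all knockout-labelled and 0 in all WT libraries.

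ADAMTS19, a protease with no well-defined substrate, fell, and was near the limit of detection in the knockout-labelled libraries. It had 6, 3 and 13 counts in knockout-labelled libraries and 33, 32 and 32 counts in WT libraries. All knockout-labelled libraries lay below all WT libraries, and ADAMTS19 changed by -2.13 on the log2 scale (SE 0.43, 95% interval -3.01 to -1.25, edgeR adjusted p = 0.000451). ADAMTS19 (chromosome 5, 129460265 to 129738683, plus strand) shares 58 exonic bases with the antisense RNA ADAMTS19-AS1, which had 8 counts in all knockout-labelled and 34 in all WT libraries. Their reads cannot be told apart where they overlap.

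ADAMTS17, a protease linked to fibrillin in connective tissue, was the member called higher. It had 141, 145 and 142 counts in knockout-labelled libraries and 113, 96 and 106 counts in WT libraries, without overlap. The rise was 0.43 on the log2 scale (SE 0.15, 95% interval 0.12 to 0.74, edgeR adjusted p = 0.038). The call was lost under DESeq2 (adjusted p = 0.0784), with the replicate block (edgeR adjusted p = 0.0507), with no filter on low counts (0.0582) and without any 1 of 4 libraries (knockout-labelled 1 or 3, WT 1 or 2; edgeR adjusted p 0.0657 to 0.139). ADAMTS13, which cuts von Willebrand factor, had 37, 49 and 44 counts in knockout-labelled libraries, against 30, 41 and 15 counts in WT libraries (log2 fold change 0.59, SE 0.30, edgeR adjusted p = 0.165). With 1 library left out, it passed without WT library 2 (log2 fold change 0.90, edgeR adjusted p = 0.0367) and not without any other, and it was 0.31 without WT library 3 (0.550).

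For regulatory context, the stretches before the start of the 3 ADAM and ADAMTS genes that fell by more than 1 log2 unit are shown, followed by that of MMP7, a matrilysin gene known as a target of Wnt signalling in the gut. The sequences are from RefSeq (GRCh38.p14), 5′ to 3′ on the gene's strand, and end at or before RefSeq's start of transcription. In the first 3, capitals mark each CG dinucleotide. In MMP7, they mark matches to the AP-1 motif TGANTCA and the TCF motif CTTTGAN, both read on either strand.
ADAM8, chr10:133276869-133277118, minus strand: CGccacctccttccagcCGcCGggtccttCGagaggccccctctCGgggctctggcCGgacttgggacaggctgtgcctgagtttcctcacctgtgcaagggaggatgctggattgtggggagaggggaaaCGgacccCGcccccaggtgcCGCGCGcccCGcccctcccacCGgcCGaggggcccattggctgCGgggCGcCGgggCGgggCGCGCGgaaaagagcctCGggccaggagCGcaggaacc
ADAM19, chr5:157575776-157576025, minus strand: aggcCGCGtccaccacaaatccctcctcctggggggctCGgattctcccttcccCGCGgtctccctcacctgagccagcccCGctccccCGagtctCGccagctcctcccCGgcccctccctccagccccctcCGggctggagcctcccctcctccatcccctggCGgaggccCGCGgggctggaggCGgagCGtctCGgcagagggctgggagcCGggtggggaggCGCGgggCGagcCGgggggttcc
ADAMTS19, chr5:129460048-129460258, plus strand: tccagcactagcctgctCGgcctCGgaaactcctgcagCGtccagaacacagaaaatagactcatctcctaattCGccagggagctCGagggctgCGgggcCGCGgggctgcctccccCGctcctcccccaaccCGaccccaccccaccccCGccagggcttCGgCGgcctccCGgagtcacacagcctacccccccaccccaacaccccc
MMP7, chr11:102530757-102530997, minus strand: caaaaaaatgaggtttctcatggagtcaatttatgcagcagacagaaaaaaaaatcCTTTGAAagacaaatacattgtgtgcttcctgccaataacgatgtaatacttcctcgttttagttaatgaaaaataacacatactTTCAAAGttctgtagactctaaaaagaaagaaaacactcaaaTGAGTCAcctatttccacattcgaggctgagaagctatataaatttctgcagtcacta
The stretch of ADAM8 holds 23 CG dinucleotides in 250 bases, that of ADAM19 21 in 250 bases and that of ADAMTS19 14 in 211 bases. In its full 250 bases ADAMTS19 has 17. The median in 250 bases is 11 over all 27305 promoters and 18 over those of protein-coding genes. Relative to the number expected from C and G content, ADAM8 has 0.680, ADAM19 0.586 and ADAMTS19 0.637. The medians of this ratio are 0.556 over all promoters and 0.742 over those of protein-coding genes. In the 250 bases before the start, none of these 3 genes has a match to either motif. MMP7 has 1 AP-1 match, starting 67 bases before the start, and 2 TCF matches, starting 109 and 194 bases before it, which do not overlap the AP-1 match. Of all 27305 promoters, 6.6% hold the AP-1 motif and 11.3% the TCF motif in a window of that length. Only 39 of the 66 members have a promoter in the table, too few to describe the set by its promoters, and a match is no evidence of binding.

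Among the MMPs, 6 of 23 could be tested and 0 were called by edgeR, DESeq2 or limma voom; by edgeR 1 was higher and 0 were lower at an unadjusted p below 0.05. The abundant ones were membrane-anchored. MMP14, which activates MMP2 and cuts fibrillar collagen, had 60.9, 61.4 and 62.4 CPM in knockout-labelled libraries and 64.7, 60.4 and 63.7 CPM in WT libraries. The groups overlapped, and the log2 fold change was -0.03 with a 95% interval of -0.17 to 0.11. MMP15, a close relative, had 94.98, 110.6 and 101.5 CPM in knockout-labelled libraries, against 106.6, 107.5 and 113.9 CPM in WT libraries (interval -0.22 to 0.04). MMP24, another membrane-type enzyme, had 48, 48 and 41 counts in knockout-labelled and 31, 32 and 25 counts in WT libraries. These groups did not overlap, but the change did not pass (log2 fold change 0.63, SE 0.27, edgeR adjusted p = 0.0886). MMP24 shares 799 exonic bases with MMP24OS on the opposite strand, which had 2315 and 2045 counts, so that part of its reads is uncertain.

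The secreted MMPs were low or absent. MMP11, or stromelysin-3, had 99, 134 and 100 counts in knockout-labelled libraries and 99, 110 and 94 counts in WT libraries (log2 fold change 0.12, 95% interval -0.20 to 0.44). It shares 218 exonic bases with CHCHD10 on the opposite strand, which had 3693 counts in knockout-labelled and 4250 in WT libraries. Reads from that stretch are therefore uncertain. MMP28, or epilysin, which epithelia make, had 45, 69 and 36 counts in knockout-labelled libraries, against 60, 71 and 46 counts in WT libraries (interval -0.75 to 0.23). MMP1, an interstitial collagenase, had 12, 16 and 10 counts in knockout-labelled libraries and 22, 25 and 9 counts in WT libraries (edgeR adjusted p = 0.361), with WT library 3 below all the others. MMP1 is 1 of 9 members in a cluster of 435 kb on chromosome 11 (102520508 to 102955734) that also holds MMP3, MMP7, MMP8, MMP10, MMP12, MMP13, MMP20 and MMP27. The whole cluster received 43 counts in all knockout-labelled and 59 in all WT libraries, of which MMP1 had 38 and 56, and 5 of its genes had no count. MMP7 itself, the matrilysin of gut epithelium whose promoter stretch is given above, had 3 counts in all knockout-labelled libraries and 1 in all WT libraries. The gelatinase gene MMP2 had 5 and 0 counts, and MMP9 had none.

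MMP17, a membrane-type enzyme held by a lipid anchor, was detected in WT libraries only. It had 0 counts in each knockout-labelled library, against 17, 20 and 8 counts in WT libraries. Putting 3 counts in place of the 0 of the knockout-labelled group gave a level 14.9-fold below WT. This took the summed WT count of 45 as exact, so it is not a lower limit. The counting intervals reach up to 3.69 knockout-labelled counts and down to 32.8 WT counts. MMP17 did not pass the filter, because WT library 3 was too low. With no filter on low counts it was called lower (edgeR adjusted p = 1.35e-07). The gene lies on chromosome 12 (131828393 to 131851783, plus strand). MMP17 was chosen after its values were seen, as were ADAMTS9, MMP16 and ADAMTS6 below, whereas TIMP3 was named by a rule.

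Besides MMP17, 4 members below the filter are described by their counts. TIMP3, an inhibitor bound to the matrix that also blocks ADAM17 and several ADAMTSs, had 1, 0 and 1 counts in knockout-labelled libraries and 8, 17 and 4 counts in WT libraries. The ratio of its summed counts was 0.0693, with a 95% counting interval of 0.00801 to 0.274. ADAMTS9, another proteoglycan-cutting protease, had 1, 0 and 1 counts in knockout-labelled libraries, against 11, 6 and 7 counts in WT libraries (ratio 0.0837, interval 0.00959 to 0.337). MMP16, a membrane-type MMP, had 1, 2 and 0 counts in knockout-labelled libraries and 2, 8 and 13 counts in WT libraries (ratio 0.131, interval 0.0252 to 0.434). Its groups met at 2 counts and were only just apart in CPM, at 0.102 in knockout-labelled library 2 and 0.116 in WT library 1. With no filter on low counts edgeR called these 3 lower, with adjusted p of 0.00289 for TIMP3, 0.0132 for ADAMTS9 and 0.0339 for MMP16. MMP17, ADAMTS9 and MMP16 were chosen by these same counts, so their p-values are no separate support. ADAMTS6 went the other way in its summed counts, with 3, 17 and 14 counts in knockout-labelled and 2, 7 and 0 counts in WT libraries (ratio 3.80, interval 1.783 to 8.997). Its edgeR adjusted p was 0.0659 with no filter, 0.0385 without knockout-labelled library 1 and 0.00522 without WT library 2, but 0.211 without WT library 1 and 0.208 without WT library 3. These intervals cover counting error only and leave out the spread between libraries, because the counts were summed over each group. The same molecule may also have been read more than once, which would make them too narrow.

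**Figure D3:**
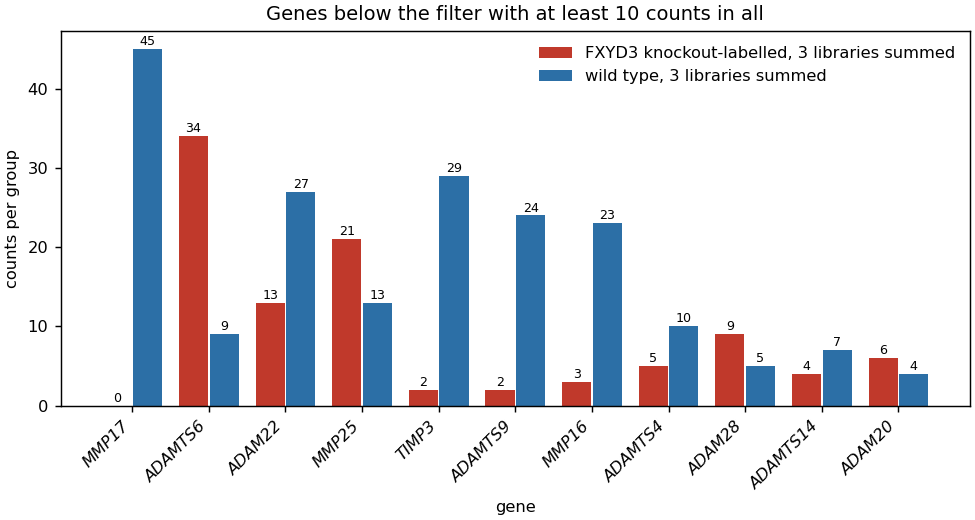
Counts summed over the 3 libraries of a group for the 11 members below the filter with at least 10 counts in all; red bars are knockout-labelled libraries, blue bars wild type, with the count above each bar. MMP17 (0 and 45), TIMP3 (2 and 29), ADAMTS9 (2 and 24) and MMP16 (3 and 23) stood mostly on the wild-type side, ADAMTS6 (34 and 9) on the other.

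The remaining members below the filter were sparse. Besides these 5, 6 members had 10 or more counts in all 6 libraries together (ADAM22, MMP25, ADAMTS4, ADAM28, ADAMTS14 and ADAM20). MMP25 had 21 counts in knockout-labelled and 13 in WT libraries and shares 1454 exonic bases with MMP25-AS1 on the opposite strand (207 and 136 counts). A further 14 members had 1 to 9 counts. The 19 with none included the aggrecanase ADAMTS5, the collagenase MMP8 and ADAM33.

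Of the 4 TIMPs, 3 could be tested and 0 were called by edgeR, DESeq2 or limma voom; by edgeR 2 were lower and 0 were higher at an unadjusted p below 0.05. TIMP1, a broad inhibitor of MMPs, had 61.7, 62.3 and 53.1 CPM in knockout-labelled libraries and 67.6, 60.6 and 70.9 CPM in WT libraries. The groups overlapped through WT library 2, and TIMP1 had a log2 fold change of -0.17 (SE 0.08, 95% interval -0.33 to -0.01, edgeR adjusted p = 0.121). Without WT library 2 it was -0.23 (edgeR adjusted p = 0.0155), and without knockout-labelled library 3 it was -0.10 (0.495). TIMP2, which also takes part in the activation of MMP2 by MMP14, had 10, 36 and 14 counts in knockout-labelled libraries, against 28, 32 and 62 counts in WT libraries. Knockout-labelled library 2 lay within the WT range. Its log2 fold change was -1.08 (SE 0.40, edgeR adjusted p = 0.0561), and it passed without knockout-labelled library 2 (-1.69, edgeR adjusted p = 0.00999), WT library 1 (-1.30, 0.0304) or WT library 2 (-1.25, 0.009). It did not pass without WT library 3 (-0.59, edgeR adjusted p = 0.356) or knockout-labelled library 1 (-0.82, 0.202) or 3 (-0.90, 0.189). Testing all genes unfiltered called it (-1.09, 0.00874).

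TIMP4 had 75, 106 and 81 counts in knockout-labelled libraries and 90, 105 and 137 counts in WT libraries, with overlap (log2 fold change -0.37, SE 0.18, edgeR adjusted p = 0.151), and without WT library 3 it was -0.14 (0.686). TIMP1, TIMP3 and TIMP4 each lie within a synapsin gene on the opposite strand. SYN1, the host of TIMP1, had no count. SYN3, the host of TIMP3, had 0 counts in knockout-labelled and 13 in WT libraries, and SYN2, the host of TIMP4, had 27 and 33 counts. TIMP4 and SYN2 share 170 exonic bases.

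Genes that act with these proteases were read from 7 lists of protein-coding genes. For comparison, 12.5% of the protein-coding genes tested were called higher and 14.5% lower, and 12.0% and 12.4% of all genes. In the plasminogen system, whose protease plasmin activates several MMPs, 3 of 7 tested members were lower and 2 higher, with a median log2 fold change of -0.36. PLAU, the urokinase gene, fell to 2, 4 and 2 counts in knockout-labelled libraries, against 29, 24 and 38 counts in WT libraries (log2 fold change -3.48, SE 0.49, edgeR adjusted p = 4.34e-06). It passed the filter through the WT libraries alone, so it could be tested only by being high there. SERPINE2, a serpin that inhibits urokinase and plasmin, fell by 0.36 on the log2 scale (SE 0.06). S100A10, part of a surface receptor for plasminogen, rose to 228 ± 14.6 CPM in knockout-labelled libraries, against 116 ± 12.9 CPM in WT libraries. ANXA2, its partner, was called higher too (0.18, SE 0.06). The number of higher members of this list was 1 with the replicate block and without knockout-labelled library 1, 2 or 3 or WT library 1 or 2.

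Among binding partners of ADAM proteases, 4 of 11 tested members were lower and 1 was higher (45.5% called, against 27.0% of protein-coding genes). The largest changes were in SH3PXD2A and SH3PXD2B, adaptor proteins of invadopodia, the matrix-degrading protrusions of cells; the first is known to bind ADAM12, ADAM15 and ADAM19. SH3PXD2B had 27, 45 and 41 counts in knockout-labelled libraries, against 337, 309 and 309 counts in WT libraries (log2 fold change -3.10, SE 0.15, edgeR adjusted p = 5.78e-15). SH3PXD2A had 64, 64 and 70 counts in knockout-labelled libraries and 378, 407 and 327 counts in WT libraries (-2.50, SE 0.13, edgeR adjusted p = 2.75e-14). In both genes the knockout-labelled libraries lay far below the WT libraries. FRMD8, which stabilises ADAM17 at the surface through the iRhom proteins, rose to 115 ± 5.49 CPM in knockout-labelled libraries, against 68.2 ± 2.04 CPM in WT libraries. TSPAN15, a tetraspanin that carries ADAM10 to the surface, fell by 0.44 on the log2 scale (SE 0.07).

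Proprotein convertases, which cut the prodomain from many of these enzymes, had 2 of 7 tested members higher, PCSK5 and PCSK6, and 1 lower. The median log2 fold change of this list was -0.02. PCSK5 had 217, 302 and 279 counts in knockout-labelled libraries, against 98, 94 and 80 counts in WT libraries (log2 fold change 1.53, SE 0.13). PCSK6 rose by 1.62 (SE 0.16). Of other inhibitors and inducers, 3 could be tested, and COL18A1, the collagen from which endostatin is cut, fell to 3.25 ± 0.198 CPM in knockout-labelled libraries, against 53.4 ± 1.18 CPM in WT libraries (-4.03, SE 0.11). ADAMTSL5, a protease-like protein with no catalytic domain, rose (0.73, SE 0.15).

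Transmembrane proteins known to be shed by ADAMs went both ways: of 31 tested, 8 were higher and 10 lower (58.1% called). The median log2 fold change was -0.07. The EGF receptor ligand gene AREG rose to 362 ± 22.8 CPM in knockout-labelled libraries, against 215 ± 11.5 CPM in WT libraries (log2 fold change 0.76, SE 0.06). The ephrin gene EFNA5 rose by 1.72 (SE 0.13). The Notch ligand gene DLL1 changed by -0.91 (SE 0.08) and TNFRSF1B, a receptor for tumour necrosis factor, by -0.89 (SE 0.09). Among transcription factors known to act on protease promoters, 4 of 20 were higher and 4 lower (40% called, median -0.10). The AP-1 genes moved unlike one another, with JUN and JUNB higher (0.81, SE 0.06, and 0.48, SE 0.08) and FOSL2 lower (-0.47, SE 0.06). LEF1, a nuclear partner of beta-catenin, had 331, 345 and 305 counts in knockout-labelled libraries and 49, 51 and 19 counts in WT libraries (3.03, SE 0.19). Of 4 tested astacins, neprilysin relatives and similar proteases, BMP1, a procollagen-processing enzyme, was called higher (0.23, SE 0.08, edgeR adjusted p = 0.0451); 0 were lower by edgeR, DESeq2 or limma voom, also at an unadjusted p below 0.05 in edgeR. The BMP1 call was lost under DESeq2, with no filter, with the replicate block and without knockout-labelled library 2 or 3 or WT library 1 or 3. Of this list, 1 member was called lower with no filter or without knockout-labelled library 1, and 2 without WT library 2. Over all genes tested, 24.3% were called, and over protein-coding genes 27.0%. The 7 lists had 25 to 71.4% of their tested members called.

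**Figure D4:**
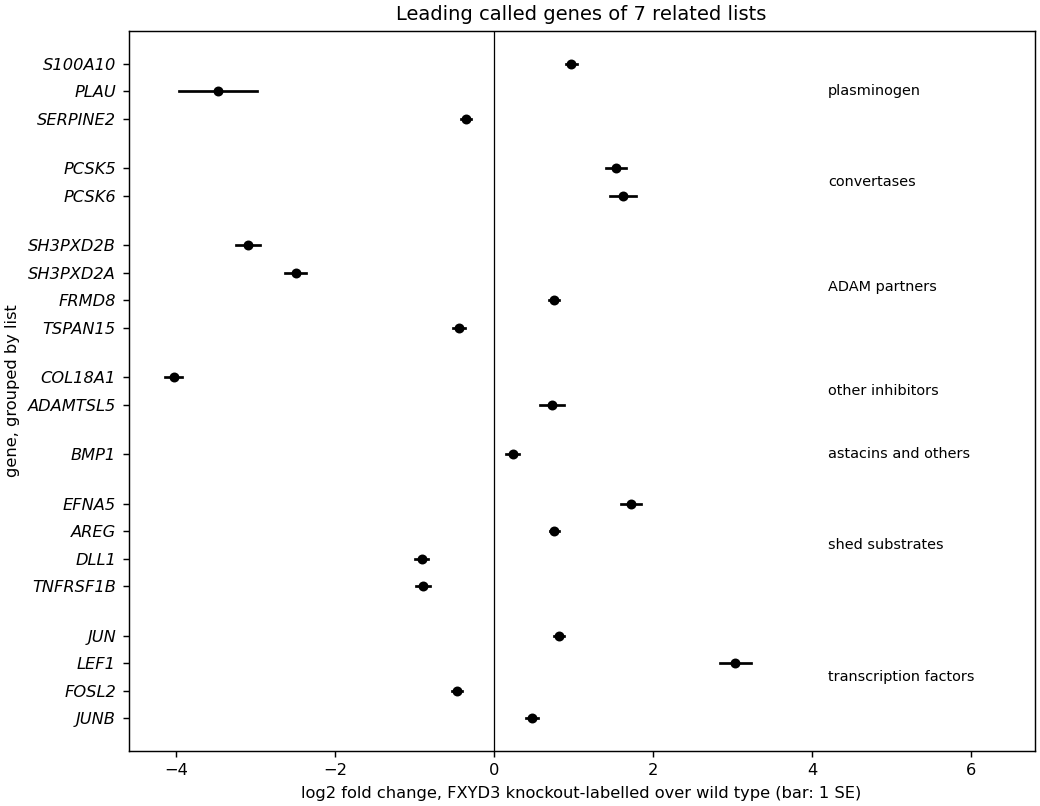
Log2 fold change of leading called genes, up to 4 from each of 7 related lists, knockout-labelled over wild type, with bars of 1 SE. COL18A1, PLAU, SH3PXD2B and SH3PXD2A lie farthest on the lower side and LEF1 on the higher side.

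Many secreted MMPs and ADAMTSs are known from stromal cells, so markers of such cells were read beside them. Of 9 fibroblast markers, COL1A2 and PDGFRA were at 0 in every library, and the list summed to 6.48 to 8.27 CPM in knockout-labelled and 1.33 to 2.11 CPM in WT libraries. Most of the difference was COL3A1, with 293 counts in knockout-labelled and 16 in WT libraries. The endothelial marker PECAM1 was at 0, and the 3 endothelial markers summed to at most 0.297 CPM in knockout-labelled and 0.112 CPM in WT libraries. The goblet markers MUC2, AGR2, SPDEF and TFF3 were called lower in the knockout-labelled libraries together with ADAMTS15, ADAM8 and ADAM19. ATOH1, the remaining goblet marker, was not called (log2 fold change -0.20, edgeR adjusted p = 0.430). The part of the goblet markers in the changes of the proteases was not tested.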

How the data were processed

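The authors deposited raw gene counts, not normalized, for 3 knockout-labelled and 3 WT libraries. The submitters' processing notes name HISAT2 2.0.5 and featureCounts 1.5.0-p3. They list the mouse build mm10, but the table holds human Ensembl genes, and all 66 members have the coordinates of GENCODE release 29 (GRCh38), which are used here. How the counting treated strand and multiply mapped reads is not stated. The 232 rows of 58967 without a gene name (0.13 to 0.25% of a library's counts) were left out.

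Genes were tested with edgeR 4.0.16 in R 4.3.3 (quasi-likelihood test, two-sided, TMM, filterByExpr with a minimum count of 10, robust estimation, no covariate), with Benjamini-Hochberg adjustment over all genes tested. SE and intervals were derived from the F statistic. CPM and TPM were computed from the counts. Intervals are at 95%, and those of count ratios are exact. DESeq2 1.42.0, limma voom (limma 3.58.1), other scalings and filters, a replicate block and leaving out each library were alternatives. The steps were tested on simulated counts. Tables and plots used Python 3.11.15.

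Named in full were called members, 10 members set by a rule, and up to 4 called genes by smallest p from each related list. ADAM15 was both called and set by the rule. Of these related genes, 2 are not reported here. The members and lists were chosen with earlier results of these data known.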

Additional observations from a re-analysis of the deposited data

How the results depend on the processing

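ADAMTS15, ADAM8, ADAMTS19 and ADAM19 were called lower in all 17 alternatives, including each library left out. Their log2 fold changes ranged from -1.01 to -0.91, -1.48 to -1.13, -2.83 to -1.68 and -1.66 to -1.15. The calls of ADAM15 and ADAMTS17 held in 8 and 9 of 17. The number of members called higher was 0 in place of 1 with no filter on low counts, under DESeq2, with the replicate block and against a minimum change of 1.5-fold (at an unadjusted p below 0.05 it was 3, 2, 2 and 0), and 0 to 2 with a library left out. The number called lower was 10 in place of 5 with no filter, and 5 to 7 with a library left out. Over all genes, 377 were higher and 418 lower against a minimum change of 1.5-fold, in place of 1839 and 1896. The log2 fold change of FXYD3 passed the threshold with upper-quartile factors (0.56), no filter (0.52), protein-coding genes alone (0.55) and the replicate block (0.54), and was 0.38 to 0.79 with a library left out, past the threshold without WT library 2 (edgeR adjusted p = 0.00313). The sign of ADAM17 turned with no filter (-0.0055) and its values ran from -0.045 to 0.094 with a library left out; ADAM11 ran from -0.0059 to 0.18. Of the 238 counts over the related lists, 29 moved by more than 1.5 times. For these changes, the cause was not tested.

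Deviations of same-numbered libraries from their group means had correlations of 0.0338, -0.116 and -0.147. Those of differently numbered libraries ran from -0.0596 to 0.173. The labels do not say if the numbers pair libraries, and so few correlations cannot settle it. The replicate block called 1478 genes higher and 1475 lower. A count of 3 corresponds to 0.195 CPM in the shallowest library, which limits what can be said of the 46 members under 1 TPM.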
